A study of Mus musculus with 6 samples.

Results

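In all, 10 genes of the NF-kB system were followed across 6 expression arrays: the transcription factor subunits Nfkb1, Nfkb2, Rela and Relb, the IkB family genes Nfkbia, Nfkbie and Nfkbiz, and the feedback and receptor-complex genes Tnfaip3, Traf1 and Birc3. The 10 genes were taken by name, with earlier results of these data known. Each was read from the probe set that names that gene alone and has the highest mean over the arrays. Nfkb1 was not analysed here, which left 9 measured genes, each with a single probe set, of 19938 genes with a probe set of their own in the series. All 9 were above 5.37, the median of all values of the series, on every array, and so were among the 11516 genes whose highest array reached that level.

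Gene expression was compared between heme and vehicle in adherent cells grown from bone marrow of Spic(igfp/igfp) mice, a genotype that all 6 arrays share and whose igfp allele the labels name without describing. The marrow was kept for 6 days with 20 ng/ml GM-CSF, the growth factor used to raise macrophage and dendritic cell cultures, in medium with 10% fetal calf serum. The heme groups then received heme at 80 µM (typed as µm in the labels) and were taken 6, 24 or 72 h later, and the vehicle groups received 0.15 M NaCl containing 10% NH4OH and were taken at the same times. Each of these groups is 1 array; the mice's age, the number of animals behind an array and whether the arrays came from separate cultures are not given in the labels; floating cells were removed before RNA was taken.

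NF-kB proteins are dimers that IkB proteins hold in the cytoplasm until an IkB kinase, switched on below receptors such as those for TNF, interleukin 1 and bacterial products, marks IkB for degradation. The freed dimers enter the nucleus and switch on inflammatory genes, and among their best known targets are the genes of their own inhibitors, which gives the pathway its negative feedback. In macrophages this system is a main route from microbial and damage signals to cytokine output.

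RefSeq promoter sequence of GRCm38.p6, from 250 bases before to 50 bases after a start site, was at hand for 7 of the 10 genes, in 10 windows. A kB consensus of 10 letters, the motif that NF-kB dimers bind, was searched on both strands. It was present in at least 1 window of 4 of these 7 genes (Nfkbia, Nfkbie, Tnfaip3 and Nfkb2), against 5.14% of 27025 genes with such windows. For comparison TGACNNNGC, the core of the antioxidant response element, was present for 1 of the 7, Nfkbia, against 13.99% of genes. The windows of the 4 genes with the kB consensus are shown because they hold the letters that the pathway's own factors bind. Rela is shown as the subunit, among the measured genes of the 10, whose level differed least with heme. Capitals mark every match to the kB consensus, read on either strand.
Nfkbia, chr12:55492598-55492897, minus strand: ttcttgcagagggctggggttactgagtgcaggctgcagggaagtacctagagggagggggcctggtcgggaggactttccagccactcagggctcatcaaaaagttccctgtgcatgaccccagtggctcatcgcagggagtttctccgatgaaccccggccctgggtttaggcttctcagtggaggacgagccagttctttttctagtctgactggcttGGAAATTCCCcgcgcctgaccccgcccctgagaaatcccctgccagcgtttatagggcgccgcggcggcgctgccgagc
Nfkbie, chr17:45555450-45555749, plus strand: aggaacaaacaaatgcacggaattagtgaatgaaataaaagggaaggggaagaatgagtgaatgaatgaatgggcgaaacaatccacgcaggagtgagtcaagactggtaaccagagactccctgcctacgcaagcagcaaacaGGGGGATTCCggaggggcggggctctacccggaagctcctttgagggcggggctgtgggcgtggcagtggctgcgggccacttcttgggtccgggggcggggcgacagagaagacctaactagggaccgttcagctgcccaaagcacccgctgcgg
Tnfaip3, chr10:19015361-19015660, minus strand: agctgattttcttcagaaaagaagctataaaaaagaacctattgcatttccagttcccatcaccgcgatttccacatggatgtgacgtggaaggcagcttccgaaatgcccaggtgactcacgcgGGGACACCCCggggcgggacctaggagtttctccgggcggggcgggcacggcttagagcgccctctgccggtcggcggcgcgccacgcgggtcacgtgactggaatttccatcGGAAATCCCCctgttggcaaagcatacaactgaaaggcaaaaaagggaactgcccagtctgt
Nfkb2, chr19:46304487-46304786, plus strand: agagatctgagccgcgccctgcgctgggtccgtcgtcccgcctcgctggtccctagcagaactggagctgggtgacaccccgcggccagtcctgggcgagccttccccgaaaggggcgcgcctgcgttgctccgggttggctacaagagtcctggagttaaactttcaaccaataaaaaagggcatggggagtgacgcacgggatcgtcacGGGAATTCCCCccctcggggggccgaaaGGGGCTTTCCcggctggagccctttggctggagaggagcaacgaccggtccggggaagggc
Rela, chr19:5637291-5637590, plus strand: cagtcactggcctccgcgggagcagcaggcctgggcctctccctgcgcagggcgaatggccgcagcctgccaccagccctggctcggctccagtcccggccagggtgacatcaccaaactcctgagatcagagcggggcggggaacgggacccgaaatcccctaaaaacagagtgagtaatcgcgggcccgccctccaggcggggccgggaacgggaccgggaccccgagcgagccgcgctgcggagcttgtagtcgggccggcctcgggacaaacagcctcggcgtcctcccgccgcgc
The match of Nfkbia lies 29 to 20 bases before the start site and reads GGGAATTTCC on the opposite strand. In Nfkbie the match GGGGGATTCC lies 106 to 97 bases before the start, and Tnfaip3 has 2 matches, GGGACACCCC at 125 to 116 bases before the start and GGGGATTTCC at 12 to 3 bases before it, on the opposite strand. The printed Nfkb2 window holds overlapping matches around 39 to 29 bases before the start and a separate GGGGCTTTCC at 11 to 2 bases before it. Windows at other start sites of Nfkb2 hold matches as well, whereas the other Tnfaip3 window and the windows of Rela, Traf1 and Birc3 hold none of these letters. Matches and the heme calls given below did not run together throughout. Traf1 and Birc3, with no match in their windows, passed, and Nfkb2, with matches, did not. A match describes the sequence alone, and binding was not measured.

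With heme, 6 of the 9 measured genes rose over the 3 time points, namely Nfkbia, Nfkbie, Tnfaip3, Traf1, Birc3 and Relb, and 0 fell. Of all 11516 genes, 1.13% were called up and 0.59% called down. Because the genes were chosen with earlier results of these data known, the shares of all genes given here describe and are not an independent test. Nfkb2, Nfkbiz and Rela did not pass. The test was limma with treatment and time as terms, and a call is a Benjamini-Hochberg adjusted p below 0.05 over all genes kept. All 27 differences of the 9 genes, heme minus vehicle at each of 3 time points, were above 0. A difference above 0 at all 3 time points was found in 12.8% of all genes. The lowest heme array lay above the highest vehicle array for 8 of the 9, the exception being Rela, and this held for 5.4% of all genes. Time points stand in for replicates here, so a p-value here reflects in part the spread of a gene's difference over the 3 times. The spread pooled over genes weighed more in it, with a prior of 7.17 against 2 residual degrees of freedom. The calls depend on 1 pair of arrays: without the 24 h pair 0 of the 9 genes passed (limma, with 8 at an unadjusted p below 0.05), and 12 of all genes did. The mean differences without that pair were 1.20 for Nfkbia, 1.78 for Nfkbie, 1.20 for Tnfaip3, 1.19 for Traf1, 0.82 for Birc3 and 0.88 for Relb, each below the mean over all 3 times by less than its SD over time points. Without the time term 0 of the 9 passed as well (limma, with 8 at an unadjusted p below 0.05). At 24 h 4 of 9 neutrophil markers kept were also at least 2-fold higher with heme, and their part in these calls was not tested.

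**Figure D1:**
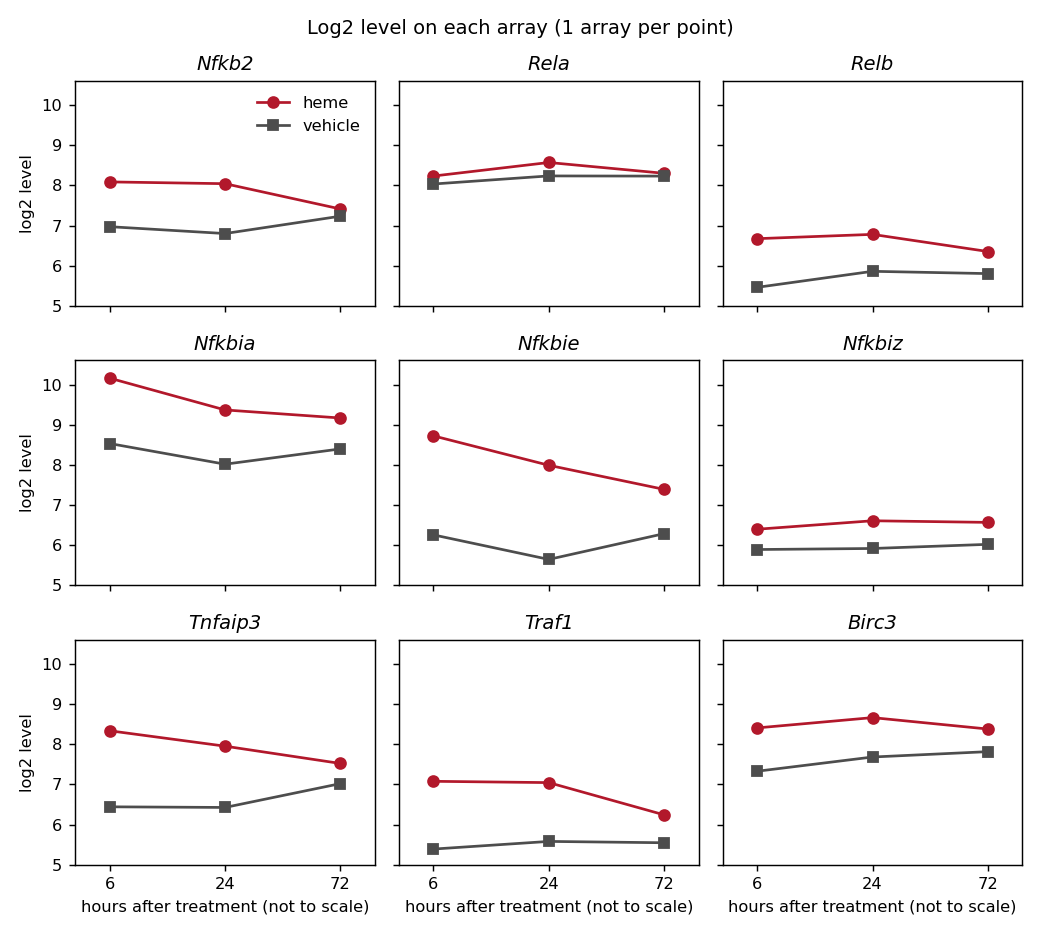
Log2 level of the 9 measured genes on each array, with hours after treatment on the x axis (spaced evenly) and 1 array per point, heme as red circles and vehicle as grey squares. The heme point lies above the vehicle point of the same hour in all 27 pairs, and the gap is narrowest for Rela.

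Among the inhibitors, Nfkbie, which encodes IkB epsilon, showed the largest difference of the 9 genes. Its probe set (10445412, gene at chr17:45555700-45563169) read 8.72, 7.99 and 7.39 on the log2 scale at 6, 24 and 72 h with heme, against 6.26, 5.65 and 6.29 with vehicle. The groups did not overlap, and the lowest heme array, at 72 h, lay 1.10 above the highest vehicle array. The differences were 2.46, 2.34 and 1.10, or 5.52-fold, 5.07-fold and 2.15-fold, with a mean of 1.97 ± 0.75 (SD, n = 3 time points; limma, adjusted p = 0.0050). At 6 h this put Nfkbie at percentile 99.9 of the differences of all genes.

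Nfkbia, which encodes IkB alpha, the classic inhibitor that is degraded on activation and made again by NF-kB itself, rose as well. The heme arrays read 10.16, 9.37 and 9.17 at 6, 24 and 72 h, and the vehicle arrays 8.53, 8.02 and 8.40. Every heme array was above every vehicle array, and the 6 h heme array was the highest. The differences at the same times were 1.63, 1.35 and 0.77, with a mean of 1.25 ± 0.44 (SD, n = 3 time points; limma, adjusted p = 0.0106).

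Nfkbiz encodes the nuclear protein IkB zeta, which acts with NF-kB at secondary response genes and does not hold it in the cytoplasm. Its levels were 6.40, 6.61 and 6.57 with heme and 5.89, 5.92 and 6.02 with vehicle at 6, 24 and 72 h. Of the 9 genes it had the steadiest difference, 0.50, 0.69 and 0.55, yet the mean of 0.58 ± 0.10 (SD, n = 3 time points) did not pass (limma, adjusted p = 0.0777). Without the 6 h pair it passed (limma, adjusted p = 0.0301), with a mean of 0.62, in a fit that called 4.52% of all genes. Without the 24 h pair or the 72 h pair it did not (limma, adjusted p = 0.686 and 0.143).

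Tnfaip3, Traf1 and Birc3 act on the receptor complexes upstream of the kinase. Tnfaip3 encodes A20, a ubiquitin-editing enzyme that shuts the signal down. It read 8.34, 7.95 and 7.52 at 6, 24 and 72 h with heme, against 6.44, 6.43 and 7.02 with vehicle. The groups did not overlap, although the 72 h vehicle array was the closest to the heme arrays. Its differences of 1.89, 1.53 and 0.50 gave a mean of 1.31 ± 0.72 (SD, n = 3 time points; limma, adjusted p = 0.0286). After cyclic loess normalization the call was lost (limma, adjusted p = 0.0557), at a mean of 1.33.

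Traf1, an adaptor that joins TNF receptor complexes, read 7.08, 7.05 and 6.24 with heme and 5.39, 5.58 and 5.55 with vehicle at 6, 24 and 72 h. The vehicle arrays stayed within 0.19 of the 6 h vehicle array, and the heme arrays at 6 and 24 h were close to each other. The mean difference was 1.28 ± 0.52 (SD, n = 3 time points; limma, adjusted p = 0.0123). Of the 9 genes, Traf1 and Relb had the vehicle levels closest to the filter, 5.39 and 5.47 at 6 h, where RMA compresses differences. Nfkbie read 5.65 on the 24 h vehicle array. With a pseudocount of 16 added on the linear scale, the mean difference was 1.05 for Traf1, 0.73 for Relb and 1.75 for Nfkbie. Each still passed (limma, adjusted p = 0.02, 0.0377 and 0.00793).

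Birc3 encodes the ubiquitin ligase cIAP2, which builds the chains that carry the signal and restrains the alternative pathway. Its levels at 6, 24 and 72 h were 8.41, 8.66 and 8.38 with heme and 7.33, 7.68 and 7.82 with vehicle. The heme arrays were all higher, and the vehicle arrays moved towards them with time. The mean difference was 0.87 ± 0.27 (SD, n = 3 time points; limma, adjusted p = 0.0237), with 1.08, 0.98 and 0.56 at the 3 time points.

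Of the 3 subunits measured among the genes followed here, Relb passed and Nfkb2 and Rela did not. Whether Nfkb2 and Rela differ from Relb was not tested. A further subunit, Rel, is in the wider pathway lists and was named after its values were seen. Rel differed by 0.38, 0.02 and 0.12 at 6, 24 and 72 h. Its mean of 0.17 did not pass (limma, adjusted p = 0.809). Relb, the partner of p52 in the alternative pathway, read 6.68, 6.78 and 6.36 at 6, 24 and 72 h with heme and 5.47, 5.86 and 5.81 with vehicle. The groups did not overlap, and the mean difference was 0.89 ± 0.33 (SD, n = 3 time points; limma, adjusted p = 0.0279). Nfkb2 encodes p100, the precursor of p52 and itself an inhibitor of RelB. It read 8.09, 8.05 and 7.42 with heme and 6.97, 6.80 and 7.24 with vehicle. The 6 and 24 h pairs stood 2.17-fold and 2.36-fold apart and the 72 h pair 1.13-fold, and the mean of 0.84 ± 0.58 (SD, n = 3 time points) did not pass (limma, adjusted p = 0.0961). Without the 72 h pair Nfkb2 passed with a mean of 1.18 (limma, adjusted p = 0.00948), and without the 6 h pair with a mean of 0.71 (limma, adjusted p = 0.0188). Those fits called 1.75% and 4.52% of all genes. Without the 24 h pair Nfkb2 did not pass, with a mean of 0.65 (limma, adjusted p = 0.795).

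Rela encodes p65, the main activating subunit of the classic pathway, whose activity is set mostly by location and modification of the protein. Its levels were 8.24, 8.57 and 8.30 with heme and 8.04, 8.24 and 8.23 with vehicle at 6, 24 and 72 h. Here the groups overlapped, since the 6 h heme array and the later vehicle arrays were level with each other. The mean difference of 0.20 ± 0.13 (SD, n = 3 time points) did not pass (limma, adjusted p = 0.726), and its percentiles among all genes were 83.1, 89.3 and 55.8 at 6, 24 and 72 h.

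**Figure D2:**
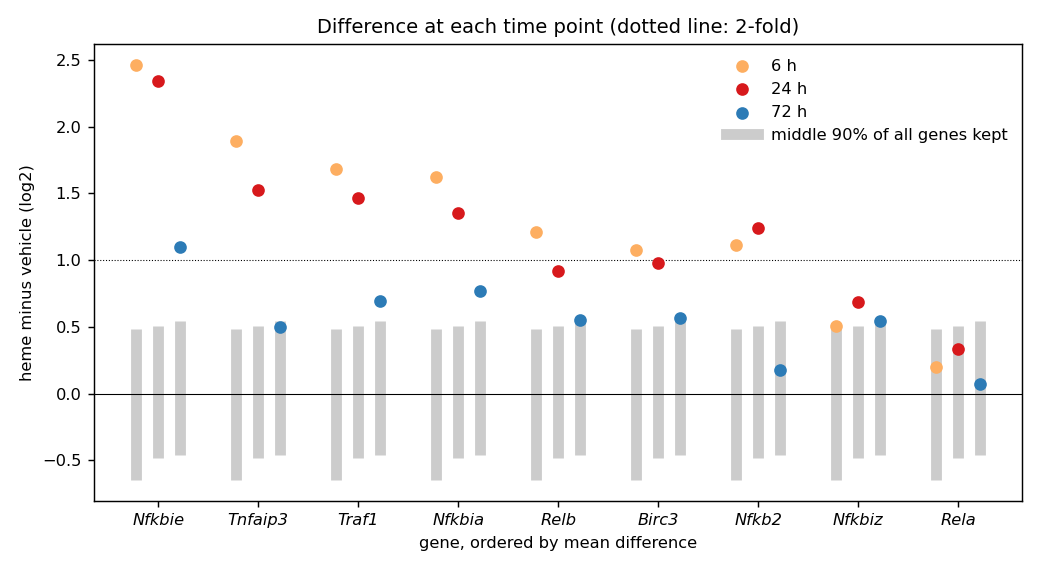
Heme minus vehicle difference on the log2 scale at 6 h (orange), 24 h (red) and 72 h (blue) for each of the 9 genes, ordered by mean difference; grey bars span the middle 90% of the 11516 genes kept at that time. At 72 h only Nfkbie (1.10) lies at or above the dotted 2-fold line, and the 3 points of Rela lie inside the grey bars.

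The size of the differences was not the same at each time point. At 6 h 7 of the 9 genes were at least 2-fold higher with heme, against 0.964% of all genes, at 24 h 5 of the 9, against 1.42%, and at 72 h 1 of the 9, Nfkbie, against 1.25%. At the same times 0 of the 9 were at least 2-fold lower, against 0.669%, 0.486% and 0.608% of all genes. Medians of the 9 differences were 1.21, 1.24 and 0.55 at the 3 times, beside -0.10, -0.02 and 0.03 for all genes. In 8 of the 9 genes, all except Nfkbiz, the 72 h difference was the smallest of the 3, a pattern with positive differences throughout that 4.61% of all genes had. In 6 of the 9 the differences became smaller in the order 6, 24 and 72 h, against 2.16% of all genes. That share is 249 genes, all among the 1469 genes with a positive difference at each time. The 72 h difference was also the smallest in 47.7% of the 130 genes called up in the series and in 36.1% of the 1469 genes with positive differences throughout. Medians differed most between the 6 h arrays, at 5.45 on the heme array against 5.34 on the vehicle array, and after centring on these medians the median difference of the 9 genes at 6 h was 1.10, with 6 genes at 2-fold or more. With 1 array per group and time, a difference between time points could not be tested.

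Between 24 and 72 h the heme array fell in level and the vehicle array often gained. All 9 genes were lower at 72 h than at 24 h with heme, by values from 0.04 for Nfkbiz to 0.80 for Traf1, against 49.1% of all genes lower in that way. With vehicle 6 of the 9 were higher at 72 h than at 24 h, against 42.1% of all genes. Traf1 had the larger part of its narrowing on the heme side, with a change of -0.80 in heme and -0.03 in vehicle. Nfkbie changed by -0.60 in heme and 0.64 in vehicle. For Tnfaip3 the change was -0.43 in heme and 0.59 in vehicle, and for Nfkbia it was -0.20 in heme and 0.38 in vehicle. These are values of single arrays and have no replicate check.

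**Figure D3:**
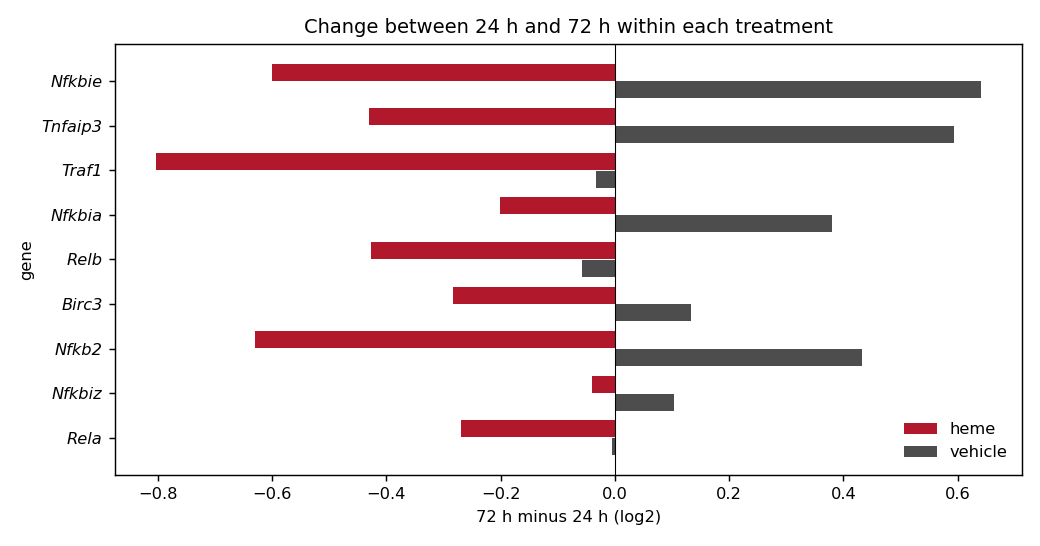
Change in log2 level from 24 to 72 h for each of the 9 genes, heme in red above vehicle in grey, each bar being the difference of 2 single arrays. The heme bar is below 0 for all 9 genes, and the vehicle bar is above 0 for 6, by the most for Nfkbie (0.64) and Tnfaip3 (0.59).

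Averaged over heme and vehicle, no change of the 9 genes with time in culture passed. At 24 h against 6 h 0 of the 9 genes rose or fell (limma, with 2 at an unadjusted p below 0.05), against 0.226% of all genes called up and 0.373% called down. At 72 h against 6 h 0 did as well (limma, with 1 at an unadjusted p below 0.05), against 3.06% up and 3.53% down. The largest such averages were those of Nfkbie and Nfkbia at 24 h, -0.67 and -0.65 (limma, adjusted p = 0.385 and 0.231).

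Over the 6 arrays the levels of the 9 genes followed each other. Pearson's r had a median of 0.89 over the 36 pairs and was above 0.8 in 27 of them; all pairs share the same 6 arrays, the treatment and the time points, so these values describe the arrays and carry no test. Nfkbia and Nfkbie were the closest pair (r = 0.99), followed by Relb and Birc3 (r = 0.98). The lowest values all involved Rela, down to 0.35 with Nfkbia. Among genes outside the 10, those most like Nfkbia over the 6 arrays were Lrrk1 (r = 0.99), Tshz1 (r = 0.99), Ptgdr2 (r = 0.99), Ell2 (r = 0.99) and the chemokine Cxcl2 (r = 0.98). Lrrk1 read 8.15, 7.61 and 7.40 with heme and 6.99, 6.85 and 6.94 with vehicle at 6, 24 and 72 h, whereas Ptgdr2 kept between 5.78 and 5.93 with heme and between 5.62 and 5.72 with vehicle, a small range at a low level.

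The rest of the pathway was read from 7 lists of 74 genes, of which 70 were measured and 67 kept. Over the 3 time points 10 of the 67 rose and 0 fell, or 14.9%, against 1.72% of all genes called. These lists too were chosen with earlier results of these data known. With no time term 4 rose, with the 24 h pair left out 1 rose, and with the 6 h pair left out 15 rose and 2 fell. Of all genes, 0.156%, 0.104% and 4.52% were called in these fits. The kinase and adaptor lists held none of the calls. Of 10 kinase genes and partners 0 passed (limma, with 3 at an unadjusted p below 0.05), and the median differences were 0.02, 0.02 and 0.10 at 6, 24 and 72 h. The largest means there were those of Ikbkg, the scaffold NEMO of the IkB kinase, at 0.79 ± 0.43 (limma, adjusted p = 0.0686), and of the related kinase Ikbke at 0.72 ± 0.28 (limma, adjusted p = 0.0523). Ikbkg ran opposite in time to most of the 9 genes, with differences of 0.38, 0.74 and 1.24 at 6, 24 and 72 h. Of 9 adaptors of receptor complexes 0 passed (limma, with 2 at an unadjusted p below 0.05). The adaptors Traf5 and Traf2 had the largest means, 0.42 and 0.37.

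Other subunits and IkB genes gave 1 call in 4, Bcl3, a nuclear IkB protein that works with p50 and p52 dimers. It read 8.35, 8.98 and 8.69 with heme and 7.49, 7.75 and 7.99 with vehicle at 6, 24 and 72 h, with a mean difference of 0.93 ± 0.28 (SD, n = 3 time points; limma, adjusted p = 0.0174). Of 10 deubiquitinases and other negative regulators 1 rose, Tnip3, a binding partner of A20. Tnip3 read 9.04, 8.25 and 8.44 with heme, against 6.89, 7.11 and 7.40 with vehicle, with a mean of 1.44 ± 0.62 (SD, n = 3 time points; limma, adjusted p = 0.0118). Tnip1, outside the rule for named genes and given after its values were seen because it is the best known A20 partner, differed by 0.79, 0.45 and -0.09 (limma, adjusted p = 0.503).

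Of 8 receptors 1 rose, Tlr2, which senses bacterial lipoproteins, by 0.72 ± 0.18 (SD, n = 3 time points; limma, adjusted p = 0.0394). Of 5 ligands kept 1 rose, Il1b, which differed by 3.33, 2.77 and 1.28 at 6, 24 and 72 h, largest at 6 h as in most of the 9 genes. At 6 h 3 of the 5 ligands were at least 2-fold higher with heme and 0 lower, against 0.964% and 0.669% of all genes. Tnf differed by 2.69, 1.09 and 0.63 (limma, adjusted p = 0.0632) and Il1a by 2.09, 0.50 and -0.48 (limma, adjusted p = 0.607). Tnf and Il1a did not pass and were named after their values were seen. Among 21 textbook targets 6 rose: Cxcl2, Ccl5, Il6, Cxcl1, Sod2 and Tnfaip2. Targets did not all run that way. At 72 h 1 of the 21, Ccl4, was at least 2-fold lower with heme, with differences of 0.75, -0.72 and -1.12 at 6, 24 and 72 h. Ccl3 differed by 0.17, -0.60 and -0.96, and Plau by -0.46, -0.18 and -0.88. Ccl4, Ccl3 and Plau did not pass and were named after their values were seen. So was Icam1, which did not pass either and differed by 1.25, 0.67 and 0.01. At 6 h 7 of the 21 targets were at least 2-fold higher with heme and 0 lower, against 0.964% and 0.669% of all genes. Over the 3 time points 14 of the 21 had an unadjusted p below 0.05 in either direction (limma), against 1223 of the 11516 genes. The mitochondrial superoxide dismutase Sod2 and Tnfaip2 were named after their values were seen, because the count was small. The chemokines Cxcl1 and Ccl5 differed most at 24 h (2.15 and 3.23) and least at 72 h (1.28 and 1.37). Sod2 kept a difference of 1.45 at 72 h, beside 1.26 at 6 h. Il6 was above the filter on the 24 h heme array alone, where it was at least 0.22 higher, so its call rests on levels with no exact size.

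**Figure D4:**
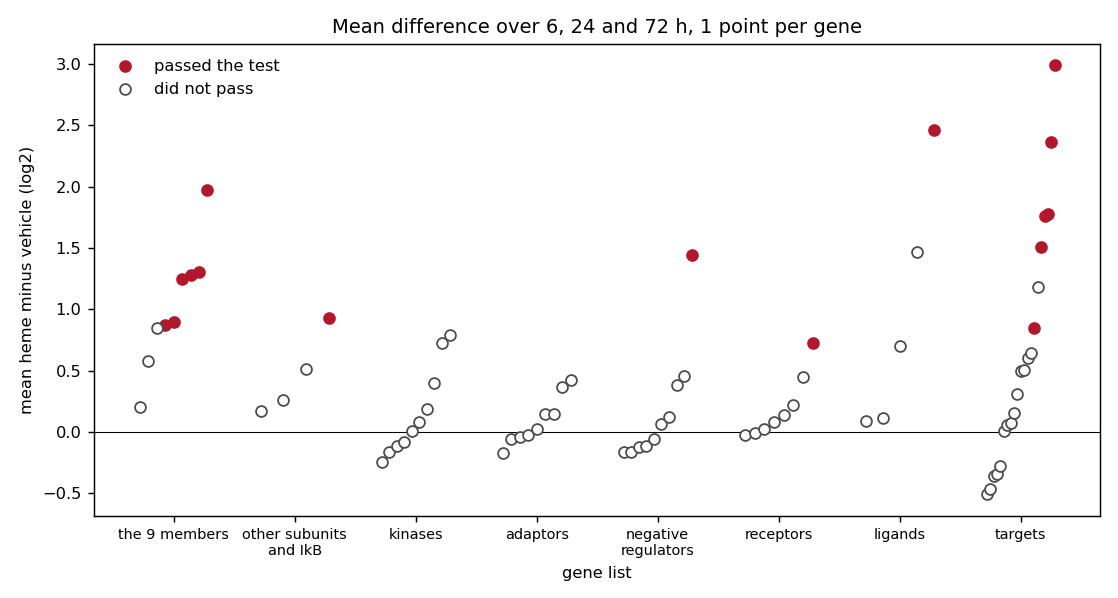
Mean heme minus vehicle difference over 6, 24 and 72 h on the log2 scale, 1 point per gene kept, for the 9 genes and the 7 pathway lists; filled points passed an adjusted p of 0.05. Filled points make up 6 of the 9 genes, 6 of 21 targets and 0 of the kinases and adaptors.

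Levels of some cell type markers differed between heme and vehicle as well, and their part in the results above was not tested; in RNA of whole cultures, fewer cells of a type and less RNA per cell cannot be told apart. All 8 macrophage markers were above the filter on every array, at 8.12 to 13.18, with median differences of -0.02, 0.04 and 0.23 at 6, 24 and 72 h. Of these 8 genes 1 rose, Cd14, by 1.09 ± 0.26 (limma, adjusted p = 0.00825), and 0 fell. Fcgr1 differed by -0.52, -0.81 and -0.41 (limma, adjusted p = 0.0999). All 5 T and NK cell markers measured were below the filter on every array, at 3.42 to 5.19, as were 3 of 5 B cell (among them Cd79a, 1.12 higher at 24 h with no exact size), 5 of 6 mast cell or basophil and 3 of 3 erythroid markers. Of 8 dendritic cell markers 4, Flt3, Zbtb46, Cd209a and Xcr1, were below the filter on every array. Of the other 4, Ccr7, which marks mature dendritic cells, rose, with differences of 0.86, 1.84 and 0.78 (limma, adjusted p = 0.0279). Itgax differed by 0.27, -0.03 and -0.50, and the medians of these 4 genes were 0.25, 0.18 and -0.01. The mean level of 10 neutrophil markers ran from 6.46 to 8.32 with heme and from 6.31 to 8.23 with vehicle. Averaged over both treatments, Ngp, S100a9, Camp and S100a8 changed by -5.20, -4.33, -3.31 and -2.34 from 6 to 72 h (limma, adjusted p from 0.00016 to 0.0030). Mmp8 changed by 0.87 (limma, adjusted p = 0.0736), and its heme minus vehicle differences were -0.66, -0.29 and 0.43 at 6, 24 and 72 h. At 24 h 4 of 9 neutrophil markers kept (S100a8, S100a9, Ngp and Camp) were at least 2-fold higher with heme, and the median difference of the 9 was 0.96. Their medians at 6 and 72 h were 0.16 and 0.03, and over the 3 time points 0 of the 9 passed (limma, with 3 at an unadjusted p below 0.05). Mean levels of the 6 stromal markers were 5.38 to 6.31 with heme and 5.49 to 5.99 with vehicle.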

How the data were processed

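Data of 6 arrays were used: the authors deposited log2 expression values, produced with RMA and quantile normalization (ArrayStar), per the series' design text and the submitters' processing notes, which give no versions. RMA compresses differences of dim probe sets. Array medians ran from 5.34 to 5.45 and pairwise correlations from 0.975 to 0.986. The number of arrays, 1 per treatment and time, limits the precision.

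Of 35556 probe sets, 21789 named 1 gene, 1621 several and 12146 were not listed in the platform annotation supplied; 21698 matched a gene identifier of GRCm38.p6. Genes were kept where the highest array reached 5.37. The 6 arrays were modelled by treatment plus time in limma 3.58.1 (R 4.3.3), with moderated two-sided tests and 2 residual degrees of freedom; this step was tested on simulated data. Arrays of the same time are paired by the labels' time points, and their deviations from the treatment means correlated at 0.562, 0.215 and 0.531 for 6, 24 and 72 h.

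Members and lists were chosen with earlier results of these data known. Named were all members, up to 4 genes passing per list (otherwise 2), the 5 genes most like Nfkbia, and markers at 2-fold. Alternatives were other normalizations, filters, probe set means, a pseudocount of 16, thresholds, variance options, no time term, and leaving out each time point.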

Additional observations from a re-analysis of the deposited data

How the results depend on the processing

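The number of the 9 genes past the test, 6, was between 5 and 7 under the other normalizations, level filters, probe set means, pseudocount and variance options that were run. With each time pair left out in turn it ran from 0 to 8. The 8 came without the 6 h pair, where 4.52% of all genes were called, in place of 1.72%. The 0 came without the 24 h pair, where 0.104% of all genes were called and 1 residual degree of freedom was left. In that fit 8 of the 9 genes had an unadjusted p below 0.05 (limma). The same count over all genes was taken only for treatment plus time on 6 arrays, with 1223 of 11516 (limma). Without the time term, that is with no replicate block for the pairing by time, 0 of the 9 genes passed (limma, with 8 at an unadjusted p below 0.05) and 18 of all genes did; 4 of the pathway genes passed, in place of 10. Pathway genes passing ran from 1 without the 24 h pair to 17 without the 6 h pair, beside the same shares of all genes. Leaving out the 6 h pair gave a prior of 46.9 degrees of freedom, in place of 7.17. The adjusted p-values then rest still more on the spread pooled over genes. At a 1.5-fold threshold 8 genes counted at 24 h and 3 at 72 h, and at 4-fold 1 at 6 h, 1 at 24 h and 0 at 72 h. The shares of all genes past 1.5-fold and 4-fold were not counted. The 95th percentile of the log2 differences of all genes kept was 0.48, 0.50 and 0.54 at 6, 24 and 72 h. With a pseudocount of 16 on the linear scale, which shrinks low levels, 0 genes reached 2-fold at 72 h. Centring arrays on their medians moved the median of all genes at 6 h to -0.22 from -0.10, and the lowest of the 9 differences at 6 h, that of Rela, was then 0.084; all differences of the 9 genes kept their direction under each scaling run. The cause of the lost calls was not tested.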
